A study of Homo sapiens with 5 samples.

Results

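The genes described here are those of the glutathione, thioredoxin and antioxidant systems in KM-H2 (labelled KMH2), an established line of Hodgkin lymphoma cells. They were chosen by name: the families of glutathione S-transferases (GST, MGST), glutathione peroxidases (GPX), peroxiredoxins (PRDX), superoxide dismutases (SOD), thioredoxin reductases (TXNRD) and glutaredoxins (GLRX), and a set of single genes around glutathione synthesis, haem, quinones and the regulator NRF2. A probe set counted where the array's annotation gives it 1 gene symbol. This left 45 genes of the 7713 that the arrays measure under 1 symbol, and each of the 45 has 1 such probe set. For SOD2 the annotated probe set carries a second gene symbol, so no value of SOD2 is given, and FTL and FTH1, the ferritin chains, were not analysed here.

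The study compared cells kept for 16 hours in 30 uM LY294002, a compound used to inhibit phosphoinositide 3-kinase (PI3K), with cells kept in its solvent DMSO. All cells grew in RPMI1640 with serum and antibiotics, and no genotype differs between the groups. The authors planned triplicates and dropped 1 array whose background was high, which leaves 3 arrays of DMSO and 2 of LY294002. KM-H2 is a single cell line, and nothing in the labels says whether the replicates were separate cultures, so the p-values measure spread between arrays that may be no more than technical.

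Cells remove superoxide with superoxide dismutases, which turn it into hydrogen peroxide, and remove hydrogen peroxide with catalase, glutathione peroxidases and peroxiredoxins. The peroxidases draw their electrons from glutathione or from thioredoxin, which glutathione reductase and thioredoxin reductase recharge with NADPH. The transcription factor NRF2 (gene NFE2L2), held down by KEAP1, induces many of these genes through antioxidant response elements, while FOXO factors, which PI3K and AKT keep inactive, are known to induce catalase and SOD2.

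With LY294002, 1 of the 45 genes passed the test. The value of GSTM1, a glutathione S-transferase of the mu class, fell by 0.35 ± 0.04 on the log2 scale (standard error; 1.27-fold lower). Its limma adjusted p was 0.0454. The call was lost with 1 DMSO array left out (limma adjusted p = 0.0994 to 0.199), but only 0 to 4 of all 7713 genes passed in those fits. Whether it held without 1 LY294002 array is not given, since such a fit leaves 1 array in that group. On all 5 arrays the other 44 did not pass (limma, Benjamini-Hochberg adjustment over all probe sets, threshold 0.05). Among all genes 0.298% were called lower and 0.609% higher, and among the 45 the counts were 1 lower and 0 higher. The largest differences upwards were those of GPX4 (1.41-fold), CAT (1.38-fold), TXN (1.37-fold) and GSTZ1 (1.33-fold), and the largest downwards was that of SOD1 (1.33-fold lower); none of these 5 passed. The median log2 fold change of the 45 was -0.04, beside -0.01 over all genes, and 18 of the 45 values lay above 0 and 27 below. The median of the 45 was -0.005 without DMSO replicate 3 and -0.003 without LY294002 replicate 1.

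An unadjusted limma p under 0.05 was found for 14 of the 45 (8 higher and 6 lower with LY294002), or 31.1%, against 17.1% of all genes. This share depends on the arrays: it was 17.8% of the 45 against 16.6% of all genes without LY294002 replicate 1, and 22.2% against 27.0% without LY294002 replicate 2. Without DMSO replicate 1 it was 26.7% against 15.1%, without DMSO replicate 2 it was 24.4% against 12.9%, and without DMSO replicate 3 it was 20.0% against 12.3%. In 11 genes each LY294002 array was higher than every DMSO array, or 24.4% of the 45 against 16.2% of all genes. In 6 each was lower, or 13.3% against 13.4%. These shares moved with the brightness of the probe set. Groups without overlap were found in 40.3% of the genes whose mean over the arrays reached the median of all probe sets, 6.27, and in 18.8% of the genes under it. Of the 45, 32 reached that median, and 43.8% of those 32 had groups without overlap, as had 23.1% of the 13 dimmer ones. An unadjusted limma p under 0.05 was found for 34.4% of those 32, against 26.2% of all genes that reached the median. Among the dimmer ones it was found for 23.1% of the 13, against 8.0% of all dimmer genes. The counts of groups without overlap also depend on the scaling of the arrays. A highest LY294002 value identical to the lowest DMSO value counted as overlap, as in GSTK1 (8.84), GPX3 (6.21) and NQO1 (7.00). Scaling can part such identical values, and how far this moved the counts was not tested. Of the 45, 33.3% were lower after quantile normalization, 31.1% after median centring and 37.8% after cyclic loess, beside 24.2%, 25.7% and 20.4% of all genes. The shares that were higher came to 17.8%, 20.0% and 22.2% of the 45, close to the 18.3%, 18.0% and 20.7% of all genes under the same scalings. Without LY294002 replicate 2 the lower share was 46.7% beside 38.5% of all genes, and the higher share 26.7% beside 28.6%.

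**Figure D1:**
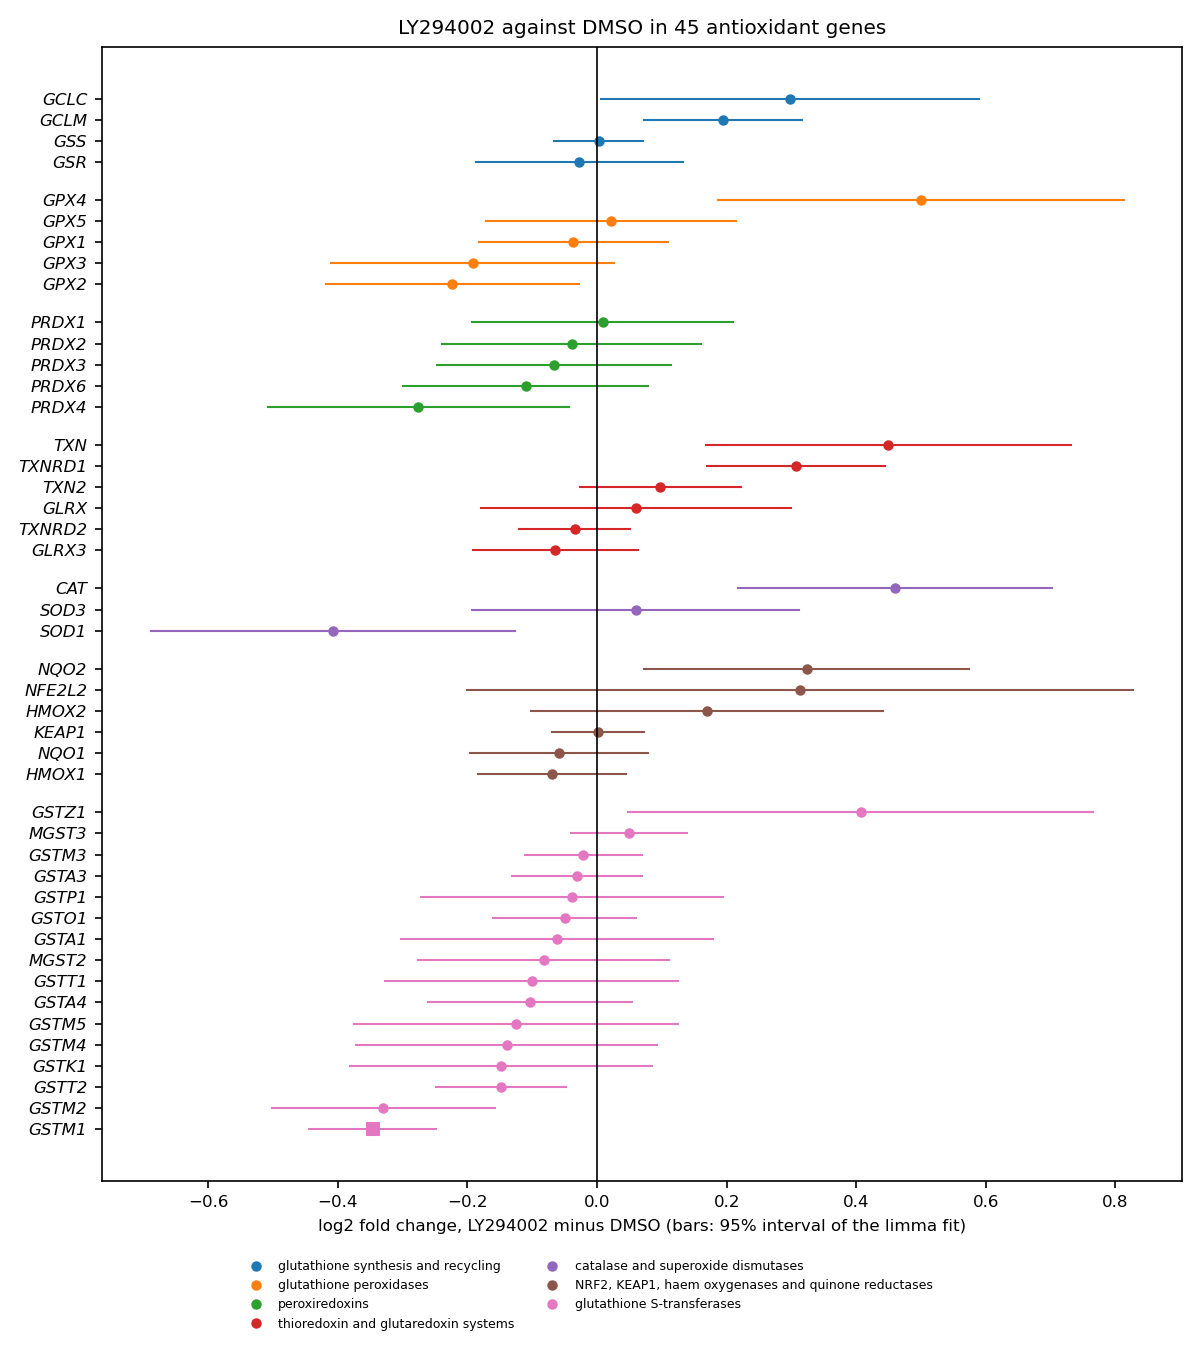
Log2 fold change (LY294002 minus DMSO) of the 45 genes, grouped and coloured by role, with the 95% interval of the limma fit over 3 DMSO and 2 LY294002 arrays. The square marks GSTM1, the gene past the adjusted threshold at -0.35, and the highest point is GPX4 at 0.50.

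Array medians ran from 6.26 to 6.29 on the log2 scale. LY294002 replicate 1 had an upper quartile of 7.69, against 7.60 to 7.62 elsewhere, and Pearson's r across probe sets was 0.996 to 0.998 within groups and 0.989 to 0.992 between them. Of 10 markers of Hodgkin cell lines, 9 had a mean above the median of all probe sets, as had 3 of 6 measured B-lineage markers. Above it lay also 5 of 5 measured T cell markers, a class of genes that Hodgkin lines are known to express aberrantly, and 2 of 2 erythroid markers (HBB and HBD). By contrast, 5 of 5 myeloid markers, 4 of 6 hepatocyte markers and 4 of 5 epithelial markers were below it. The mean of the B-lineage list was 7.67 to 7.70 on the DMSO arrays and 7.47 and 7.46 on the LY294002 arrays. Its member MS4A1 (CD20) was at 10.57, 10.43 and 10.24 against 9.59 and 9.25 (limma adjusted p = 0.073). MS4A1, read by an x_at probe set, was the only 1 of the 6 with an absolute log2 fold change of at least 0.3. The lower list mean thus rests mostly on MS4A1. The median log2 fold change of the list was -0.10, with 4 of its genes below 0 and 2 above. The mean of the Hodgkin list was 8.64 to 8.75 against 8.73 and 8.67, but 9 of its 10 genes had groups apart (4 higher and 5 lower, beside 29.6% of all genes in either direction). IRF4, a transcription factor of that list, was at 0.66 and passed (limma adjusted p = 0.0473). It lost its call with 1 DMSO array left out, in fits where only 0 to 4 of all 7713 genes passed. The mean of the T cell list was 7.42 to 7.44 on the DMSO arrays and 7.20 and 7.37 on the LY294002 arrays, and that of the erythroid list 7.44 to 7.51 against 7.28 and 7.54. Their part in the values below was not tested.

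Promoter stretches are shown for genes whose start lies beside a match to the core of the antioxidant response element, since that is the sequence through which NRF2 is known to act. RefSeq promoter windows (250 bases before to 50 after a gene's start, build GRCh38.p14) were found for 34 of the 45 genes, in 44 windows. The letters TGACNNNGC, searched on both strands, occur in 10 of these 44 windows (22.7%) and in 13.3% of all 35116 windows. The FOXO motif TGTTTAC occurs in 1 of the 44 windows, that of GSTP1 (2.27%), and in 3.42% of all windows. Neither the CAT nor the TXN window holds either motif, which says only that these letters are not within this stretch. Below, capitals mark the match, and each stretch reads 5′ to 3′ on the gene's strand.
TXNRD1, first window, chr12:104215654-104215714, plus strand: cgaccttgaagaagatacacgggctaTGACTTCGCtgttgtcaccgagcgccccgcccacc
TXNRD1, second window, chr12:104286904-104286964, plus strand: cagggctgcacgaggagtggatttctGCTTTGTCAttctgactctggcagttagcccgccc
GCLM, chr1:93909431-93909490, minus strand: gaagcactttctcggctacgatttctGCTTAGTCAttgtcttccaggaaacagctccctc
GPX2, chr14:64942833-64942893, minus strand: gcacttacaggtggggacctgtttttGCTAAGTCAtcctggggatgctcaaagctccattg
GSTP1, chr11:67583720-67583780, plus strand: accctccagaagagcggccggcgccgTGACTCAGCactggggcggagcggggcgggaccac
GSTM1, chr1:109687626-109687686, plus strand: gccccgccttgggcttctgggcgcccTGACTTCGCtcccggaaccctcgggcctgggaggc
GSTM5, chr1:109712066-109712126, plus strand: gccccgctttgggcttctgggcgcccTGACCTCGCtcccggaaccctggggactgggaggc

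In TXNRD1 (first window), GSTP1, GSTM1 and GSTM5 the match lies on the gene's strand, and in the second TXNRD1 window, GCLM and GPX2 on the opposite one. It begins 99 bases before the start of TXNRD1 in the first window, 102 in the second, 34 before that of GCLM, 122 before GPX2, 66 before GSTP1, 165 before GSTM1 and 159 before GSTM5. Genes with a match did not share 1 direction: TXNRD1 and GCLM were higher on both LY294002 arrays, GPX2 and GSTM1 lower on both, and the groups of GSTP1 and GSTM5 overlapped. The windows of GSTA4, GSTO1 and KEAP1 hold these letters too and are not shown. Their groups overlapped. The first TXNRD1 window holds a further match that begins 8 bases before the start. A match is a description of the letters and not of binding.

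Glutathione is made by glutamate-cysteine ligase, whose catalytic chain is GCLC and whose modifier chain is GCLM, and then by glutathione synthetase GSS. GCLC was at 5.93, 6.19 and 6.16 on the DMSO arrays and at 6.49 and 6.29 on the LY294002 arrays (log2 fold change 0.30 ± 0.11, limma adjusted p = 0.286). GCLM was at 6.34, 6.34 and 6.25 with DMSO and at 6.47 and 6.53 with LY294002 (0.19 ± 0.05, limma adjusted p = 0.147). Both chains of the ligase thus lay higher on both LY294002 arrays, by gaps of 0.10 and 0.13 to the nearest DMSO array, and neither passed. GSS, the next enzyme, was at 7.77, 7.78 and 7.78 with DMSO and at 7.78 on both LY294002 arrays, with a 95% interval of the log2 fold change from -0.07 to 0.07. Its value was identical on 4 of the 5 arrays, so this interval rests mostly on the variance that limma shares across probe sets. NOX5, with an identical value on all 5 arrays, has the same interval, -0.07 to 0.07. GSR, glutathione reductase, which restores reduced glutathione, was at 6.51, 6.68 and 6.54 with DMSO and at 6.55 on both LY294002 arrays, inside the DMSO range (-0.03 ± 0.06). The sign of GSS turns after quantile normalization, median centring and cyclic loess.

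Among glutathione peroxidases GPX4, which reduces lipid peroxides in membranes, had the largest value. GPX4 was at 10.36, 10.01 and 10.30 with DMSO and at 10.74 and 10.71 with LY294002. The groups did not overlap, and DMSO replicate 2 was the lowest array. The log2 fold change of GPX4 was 0.50 ± 0.12 (limma adjusted p = 0.147), and 0.39 to 0.57 with 1 array left out. GPX2, the peroxidase known from gut epithelium, was at 8.28, 8.22 and 8.27 with DMSO and at 7.93 and 8.14 with LY294002 (-0.22 ± 0.07, limma adjusted p = 0.242). Its LY294002 arrays lay below the DMSO arrays but apart from each other, and the value was -0.12 without LY294002 replicate 1 and -0.33 without replicate 2. GPX1, the abundant cytosolic peroxidase, was at 8.58, 8.60 and 8.73 with DMSO and at 8.60 on both LY294002 arrays (-0.04 ± 0.06). The groups also overlapped in GPX3, the plasma peroxidase (-0.19 ± 0.08), and in GPX5, an epididymal form whose probe set lay below the lower quartile of all probe sets (0.02 ± 0.07).

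Peroxiredoxins are thiol peroxidases, most of which thioredoxin recharges. Of the 5 measured the groups were apart in 1 (beside 29.6% of all genes), PRDX4, the form of the endoplasmic reticulum. PRDX4 was at 9.23, 9.49 and 9.39 with DMSO and at 9.12 and 9.07 with LY294002 (-0.28 ± 0.09, limma adjusted p = 0.23). Both LY294002 arrays lay below the DMSO range, by 0.11. PRDX1, the main cytosolic form, was at 11.33, 11.54 and 11.50 with DMSO and at 11.45 and 11.49 with LY294002, inside that range (95% interval from -0.19 to 0.21). The log2 fold change was -0.07 ± 0.07 for PRDX3, the mitochondrial form, -0.11 ± 0.07 for PRDX6, and -0.04 ± 0.08 for PRDX2, whose probe set lay below the lower quartile. PRDX1 is above 0 as deposited and below 0 after quantile normalization or cyclic loess.

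In the thioredoxin system the cytosolic pair had the larger differences and the mitochondrial pair the smaller. TXN, cytosolic thioredoxin, was at 10.05, 10.15 and 9.86 with DMSO and at 10.39 and 10.55 with LY294002 (log2 fold change 0.45 ± 0.11, limma adjusted p = 0.147). TXNRD1, the selenoenzyme that reduces it, was at 8.08, 8.23 and 8.14 with DMSO and at 8.44 and 8.46 with LY294002 (0.31 ± 0.05, limma adjusted p = 0.0827). For both genes the groups were apart, by 0.24 and 0.22, and TXNRD1 came nearest to the threshold among genes that were higher. TXN2, mitochondrial thioredoxin, was at 8.55, 8.60 and 8.49 with DMSO and at 8.67 and 8.61 with LY294002, a gap of 0.01 (0.10 ± 0.05, limma adjusted p = 0.393). Its reductase TXNRD2 was at -0.03 ± 0.03. No test of the difference between the cytosolic and the mitochondrial pair was made. GLRX, the cytosolic glutaredoxin, which uses glutathione to reduce mixed disulphides, was at 6.66, 6.90 and 6.90 with DMSO and at 6.86 and 6.90 with LY294002 (0.06 ± 0.09), and GLRX3, an iron-sulphur glutaredoxin, was at -0.06 ± 0.05.

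**Figure D2:**
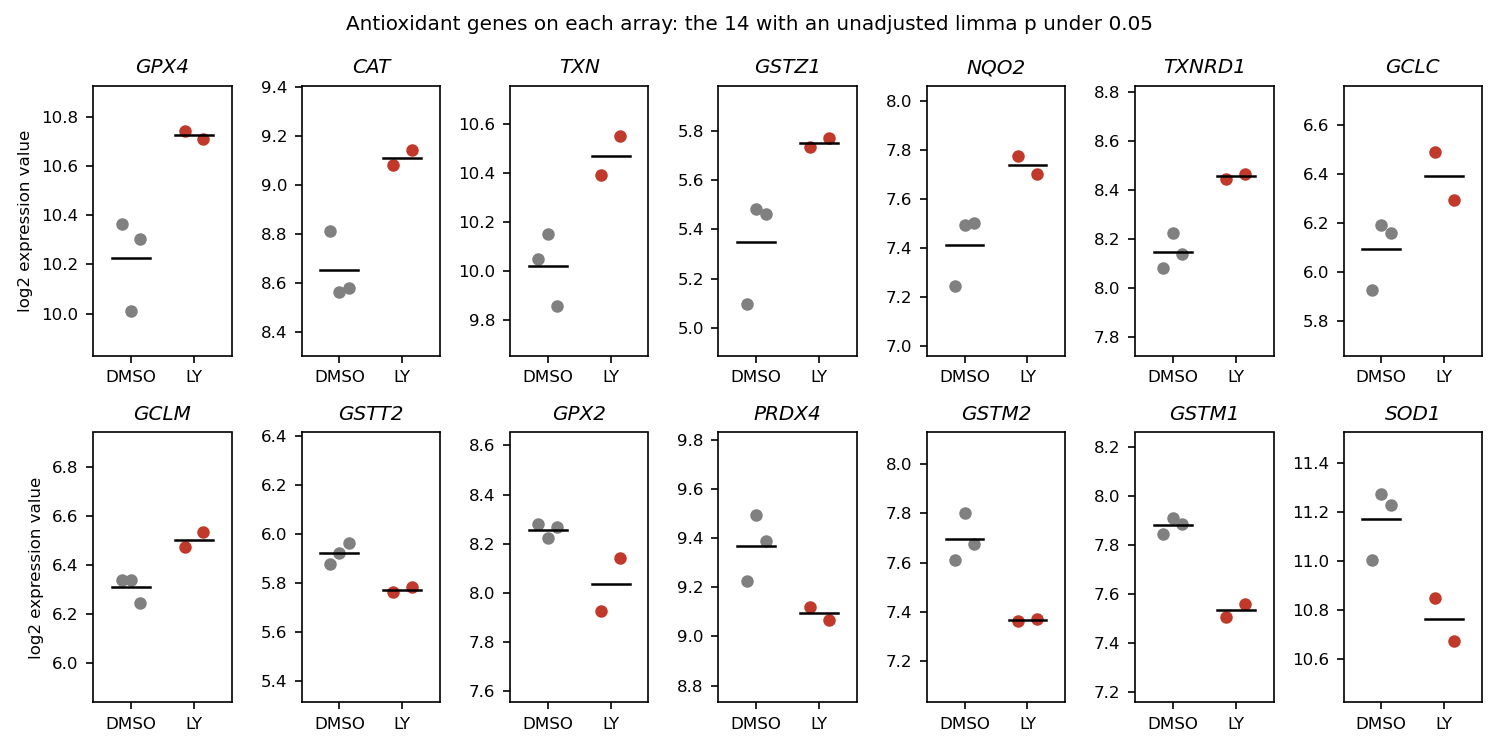
Log2 expression value (vertical axis, all panels spanning the same range) of the 14 genes with an unadjusted limma p under 0.05, on 3 DMSO arrays (grey) and 2 LY294002 arrays (red, LY), with group means as lines. In each panel the groups do not overlap, and the LY294002 arrays are higher in 8 genes and lower in 6.

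Catalase and the cytosolic superoxide dismutase differed in opposite directions. CAT, which breaks down hydrogen peroxide in peroxisomes and is a known FOXO target, was at 8.81, 8.56 and 8.58 with DMSO and at 9.08 and 9.14 with LY294002 (0.46 ± 0.09, limma adjusted p = 0.11). SOD1, the copper-zinc enzyme, was at 11.01, 11.27 and 11.23 with DMSO and at 10.85 and 10.68 with LY294002 (-0.41 ± 0.11, limma adjusted p = 0.169). For CAT the lowest LY294002 array was 0.27 above the highest DMSO array, and for SOD1 the highest LY294002 array was 0.16 below the lowest DMSO array. DMSO replicate 1 was the DMSO array nearest to LY294002 for both genes. Without it the log2 fold change of CAT was 0.54 and that of SOD1 -0.49. SOD3, the extracellular form, is read by a probe set of the x_at type, which can bind transcripts of other genes, and its groups overlapped (0.06 ± 0.09).

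The regulators of the NRF2 system and its best known targets had values on both sides of 0. NFE2L2, the gene of NRF2, was at 7.74, 7.58 and 7.14 with DMSO and at 7.83 and 7.77 with LY294002 (0.31 ± 0.19, limma adjusted p = 0.449). DMSO replicate 3 stood well below the other arrays, and without it the log2 fold change of NFE2L2 was 0.14. KEAP1, which marks NRF2 for degradation, was at 7.50, 7.49 and 7.48 with DMSO and at 7.49 on both LY294002 arrays (95% interval from -0.07 to 0.07). The value of KEAP1 was identical on 3 of the 5 arrays, so this interval, like that of GSS, rests mostly on the variance that limma shares. Its sign turns under quantile normalization, median centring and cyclic loess. HMOX1, inducible haem oxygenase, was at 6.35, 6.32 and 6.36 with DMSO and at 6.22 and 6.33 with LY294002 (-0.07 ± 0.04), and NQO1, the quinone reductase often used as a readout of NRF2, at 7.00, 7.12 and 7.00 against 6.96 and 7.00 (-0.06 ± 0.05). The groups of both overlapped, and the upper bounds of their 95% intervals were 0.05 and 0.08. The value of NQO1 was identical on 3 of the 5 arrays. HMOX2, the constitutive haem oxygenase, was at 6.95, 7.25 and 7.11 with DMSO and at 7.33 and 7.22 with LY294002 (0.17 ± 0.10, limma adjusted p = 0.444), and its value was 0.09 without DMSO replicate 1. NQO2, a quinone reductase that does not use NADPH, was at 7.25, 7.50 and 7.50 with DMSO and at 7.77 and 7.70 with LY294002, with no overlap (0.32 ± 0.09, limma adjusted p = 0.202).

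Glutathione S-transferases, which couple glutathione to electrophiles, are the largest family here. Of their 16 log2 fold changes 14 lay below 0 (87.5%, beside 55.5% of all genes), with a family median of -0.09. The probe sets of 8 of the 16 are dimmer than the median, and among all such dim genes 2474 of 3851 lay below 0. Without LY294002 replicate 1 the count was 11 of 16 (68.8%, beside 50.7% of all genes) and the median -0.03, and after cyclic loess 13 were below 0. GSTM1 was at 7.84, 7.91 and 7.89 with DMSO and at 7.51 and 7.56 with LY294002, apart by 0.28. Its neighbour GSTM2 was at 7.61, 7.80 and 7.68 with DMSO and at 7.36 and 7.37 with LY294002, apart by 0.24 (-0.33 ± 0.06, limma adjusted p = 0.108). Both are read by x_at probe sets, and the mu-class genes are close in sequence, so the values of GSTM1 and GSTM2 are uncertain as values of single genes and are not independent of each other. GSTM1 is also known to be missing from many human genomes, and its state in KM-H2 is not given in the sources used here. Of the other mu-class genes GSTM3 was at -0.02 ± 0.03, GSTM4 at -0.14 ± 0.09 and GSTM5 at -0.12 ± 0.09, each with overlapping groups.

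The log2 fold change of GSTM1 was -0.37 to -0.32 with any 1 array left out. Its call was lost with 1 DMSO array left out (limma adjusted p = 0.0994 to 0.199). Only 0 to 4 of all 7713 genes passed in those fits, so the loss is not particular to GSTM1. A fit without 1 LY294002 array leaves 1 array in that group, so only its log2 fold change is given. The call was lost too with array weights (limma adjusted p = 0.0753) and when the prior variance followed intensity robustly (0.0551). It held after quantile normalization, median centring and cyclic loess.

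Of the other transferases, GSTZ1 and GSTT2 had groups apart with an unadjusted limma p under 0.05. GSTZ1, which also works in tyrosine breakdown, was at 5.10, 5.48 and 5.46 with DMSO and at 5.73 and 5.77 with LY294002 (0.41 ± 0.14, limma adjusted p = 0.247), with DMSO replicate 1 far below the others. Without that array its value was 0.28. GSTT2, of the theta class, was at 5.88, 5.92 and 5.96 with DMSO and at 5.76 and 5.78 with LY294002 (-0.15 ± 0.04, limma adjusted p = 0.167). GSTP1, the pi-class enzyme common in tumours, was at 8.90, 9.04 and 9.13 with DMSO and at 8.91 and 9.06 with LY294002 (-0.04 ± 0.09), and its sign turned without LY294002 replicate 1 or without DMSO replicate 3. MGST3, a microsomal form, had both LY294002 arrays 0.02 above the DMSO range (0.05 ± 0.03). In the remaining 7 the groups overlapped, with log2 fold changes from -0.15 (GSTK1) to -0.03 (GSTA3).

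**Figure D3:**
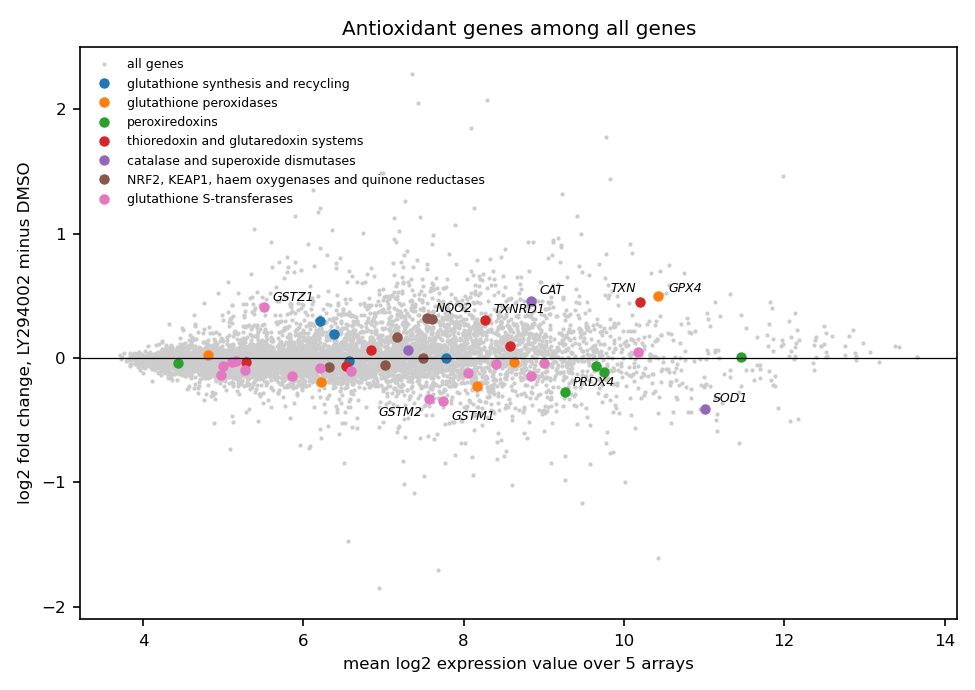
Log2 fold change (LY294002 minus DMSO) against the mean log2 expression value over 5 arrays for all 7713 genes (grey) and the 45 antioxidant genes (coloured by role). The 45 lie between -0.41 (SOD1) and 0.50 (GPX4), inside the range of all genes, -1.85 to 2.28.

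The spread of the members against the array error differed by gene. Leaving out each array in turn moved NFE2L2 from 0.14 to 0.44, GCLC from 0.20 to 0.40 and GPX2 from -0.33 to -0.12, while TXNRD1 stayed between 0.27 and 0.35, GCLM between 0.16 and 0.23 and GSTM1 between -0.37 and -0.32. Of the 26 genes with values given for every array, 19 kept their sign under every alternative run on them, and the 7 that did not were GLRX, GPX1, GSR, GSS, GSTP1, KEAP1 and PRDX1. Identical values occurred on at least 2 arrays in 20 of the 45 probe sets (44.4%), beside 4360 of all 7713 genes (56.5%). When probe sets with identical values within a group were left out, 7 of 31 remaining members passed (22.6%, against 10.7% of 4783 genes in the same fit). These were CAT, GPX4, TXN and TXNRD1 among the higher and GSTM1, GSTM2 and SOD1 among the lower. This setting was chosen after such values had been seen, and its shares were not matched for brightness.

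**Figure D4:**
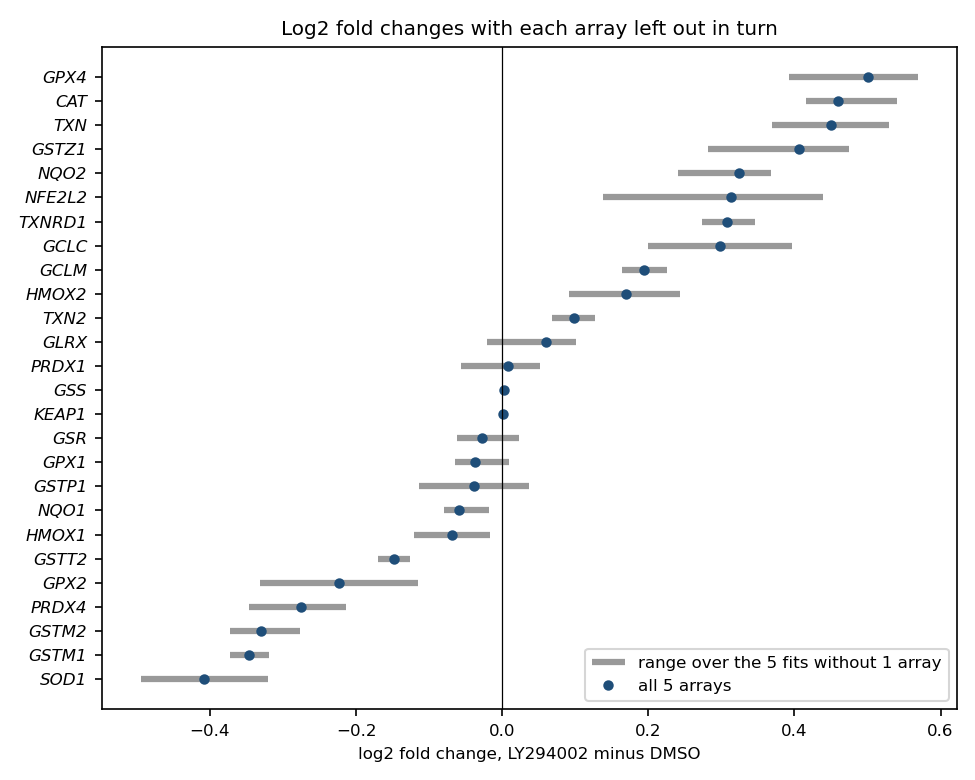
Log2 fold change (LY294002 minus DMSO) of the 26 genes with values given for every array: points are the fit on 5 arrays, bars the range over the 5 fits that each leave out 1 array. The bar of NFE2L2 runs from 0.14 to 0.44, and those of GLRX, PRDX1, GSR, GPX1 and GSTP1 visibly cross 0.

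Genes around these systems passed in 2 cases. Neither call held with 1 DMSO array left out, in fits where only 0 to 4 of all 7713 genes passed. Of 12 measured genes that supply NADPH, PGLS, the lactonase of the pentose phosphate pathway, rose: it was at 7.69, 7.63 and 7.68 with DMSO and at 8.05 and 8.01 with LY294002 (log2 fold change 0.37 ± 0.03, limma adjusted p = 0.0348, and 0.0994 to 0.173 with 1 DMSO array left out). This is 1 of 12, beside 0.609% of all genes called higher, and none of the NADPH genes fell past the threshold. MTHFD1, a folate enzyme, was at -0.42 ± 0.11 (limma adjusted p = 0.165), PGD, the dehydrogenase that follows PGLS, at 0.16 ± 0.05 (0.245), and the median of the list was -0.04. Of 24 measured NRF2 targets and partners outside the 45, 1 rose and 0 fell, beside 0.609% and 0.298% of all genes. This was SQSTM1, an autophagy receptor that binds KEAP1 and is itself an NRF2 target (0.70 ± 0.06, limma adjusted p = 0.034, and 0.0858 to 0.17 with 1 DMSO array left out). With array weights PGLS and SQSTM1 lost their calls too, as did PGLS when the prior variance followed intensity. With the replicate block no gene at all passed. RBX1, a ring protein of the ligase that KEAP1 serves, was at 0.33 ± 0.05 (limma adjusted p = 0.0767). AKR1C1, an aldo-keto reductase, was at 0.34 ± 0.05 (limma adjusted p = 0.0776). It is read by an x_at probe set, so its value is uncertain as that of a single gene. The median of that list was 0.04, and TXNIP, the inhibitor of thioredoxin, was at 0.01 ± 0.05.

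No gene of the remaining 4 lists passed in either direction. Of 13 measured genes of cystine uptake and glutathione turnover, HAGH, a glyoxalase that releases glutathione, was at 0.30 ± 0.06 (limma adjusted p = 0.118) and ABCC1, an exporter of glutathione conjugates, at 0.28 ± 0.06 (0.142). SLC7A11, the cystine carrier, was at 6.28, 5.79 and 5.71 with DMSO and at 5.50 and 5.59 with LY294002, so that DMSO replicate 1 stood apart (-0.38 ± 0.19, limma adjusted p = 0.411). Of 8 genes of iron handling, TFRC, the transferrin receptor, was at -0.22 ± 0.05 (limma adjusted p = 0.158), and of 16 genes of oxidant production RAC2, a GTPase of the NADPH oxidase, was at 0.51 ± 0.14 (0.182). Among 12 selenoproteins, their synthesis factors and methionine sulfoxide reductases, MSRB2, the mitochondrial methionine sulfoxide reductase, had the largest value above 0 of the genes named here. MSRB2 was at 7.05, 7.27 and 7.35 with DMSO and at 8.29 and 8.13 with LY294002 (0.99 ± 0.11, limma adjusted p = 0.0503), just short of the threshold. The medians of these 4 lists lay between -0.03 and 0.01.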

How the data were processed

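Total RNA of 5 samples was labelled with biotin as cRNA and hybridised to Affymetrix arrays, per the labels' protocols. The deposited table holds log2 probe set values, which the authors made with affy, an R package, according to the tools named per the labels. How it summarised probes, and its version, is not given in the sources used here. No further scaling was applied. Of 8793 probe sets, 47 controls were left out and 8746 were fitted; 7840 carry 1 gene symbol in the platform's annotation, 388 several and 518 none. A gene with several probe sets was represented by its brightest. All 45 members matched RefSeq by gene identifier.

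LY294002 was compared with DMSO by limma 3.58.1 (lmFit and eBayes, two-sided) in R 4.3.3, with the group as the only term, 3 residual degrees of freedom, and Benjamini-Hochberg adjustment over 8746 probe sets (threshold 0.05). Errors beside log2 fold changes are standard errors of this fit. The script was tested on simulated data. The number of arrays limits the precision.

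The members, the lists of related genes and markers, and the alternatives were chosen with earlier results of these data known. Values on every array were given for a fixed set of 20 measured genes and for each member with an unadjusted p under 0.05 and groups that do not overlap, and related genes were named where they passed, with up to 2 more of the smallest p in each list; TXNIP, SLC7A11, MS4A1 and IRF4 were named after their values were seen. Plots used matplotlib 3.10.9 (Python 3.11.15).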

Additional observations from a re-analysis of the deposited data

How the results depend on the processing

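Probe sets past the threshold numbered 84 as deposited, 353 after quantile normalization, 179 after median centring, 311 after cyclic loess, 240 without the dimmest 40%, 22 with array weights, 0 with the replicate block, 0 to 4 with 1 array left out, and 587 without identical values. Of the 45 antioxidant genes, the 1 called lower became 3 after quantile normalization (GSTM1, GSTM2, SOD1) and 2 after cyclic loess (GSTM1, GSTM2). The count was 3 without identical values (with 4 called higher). With the intensity trend and robust prior, array weights, the replicate block or 1 DMSO array left out, it was 0. Leaving out x_at probe sets takes GSTM1 itself off the list, so the 0 found there was fixed in advance. The adjusted limma p of GSTM1 stays 0.0454 in that setting. In GSTM2 (-0.38, adjusted p = 0.0339) and SOD1 (-0.41, 0.0482) a limma call was gained by quantile normalization, and in GSTM2 by cyclic loess (-0.36, 0.0487). Members with LY294002 wholly below DMSO numbered 6 as deposited (13.4% of all genes), 15 after quantile normalization (24.2%), 14 after median centring (25.7%), 17 after cyclic loess (20.4%), and 7 to 21 with 1 array left out (16.6% to 38.5%), the 21 without LY294002 replicate 2. The median log2 fold change of the members was -0.0055 with the replicate block, and -0.057 to -0.0032 with 1 array left out. The replicate block is a term for the replicate number. DMSO replicate 3 has no LY294002 array of its number, so the block takes it up. The log2 fold changes are then those of the fit without DMSO replicate 3. The block also leaves fewer residual degrees of freedom than the 3 of the main fit, and no probe set passed. It gave GSTM1 a log2 fold change of -0.34 (limma adjusted p = 0.348). Deviations of same-numbered DMSO and LY294002 arrays from their group means had r = 0.00209 for number 1 and -0.213 for number 2 across probe sets. With 2 LY294002 arrays both values rest on the 1 difference between them. They cannot settle whether the numbers mark pairs, and the main fit did not take them as pairs.

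Signs turned in 13 of the 45 genes: in 7 of the 26 with values given for every array, and in 6 of the other 19 (GPX5, GSTA1, GSTM3, MGST2, PRDX2 and SOD3). After quantile normalization GSS was at -0.059, KEAP1 at -0.051 and PRDX1 at -0.035. After median centring GSS was at -0.0030 and KEAP1 at -0.0037. After cyclic loess GSS was at -0.029, KEAP1 at -0.023 and PRDX1 at -0.014. PRDX1 was at -0.013 with array weights. With the replicate block, as without DMSO replicate 3, GPX1 was at 0.0091, GSTP1 at 0.014 and KEAP1 at -0.0036. With 1 array left out the values ran from -0.020 to 0.10 for GLRX, from -0.064 to 0.0091 for GPX1, from -0.062 to 0.023 for GSR, from -0.11 to 0.037 for GSTP1, from -0.0036 to 0.0063 for KEAP1 and from -0.057 to 0.052 for PRDX1. The cause of these shifts was not tested. In fits with 1 LY294002 array, that array is assumed to vary like the DMSO arrays. Calls of single genes in such fits are not given. No array signal over background is given here, and the number of arrays limits the precision.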
